A study of Mus musculus with 6 samples.

Results

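CTCF binding was examined at the genes of the cohesin machinery in mouse embryonic stem cells (mESCs), pluripotent cells grown from the early embryo. The genes were Smc3, Rad21, Stag1, Nipbl, Wapal, Pds5a, Pds5b, Esco1, Esco2 and Cdca5. Every region of the deposited CTCF table that touched 1 of these 10 genes, or lay within 20 kb of it, was taken, which gave 42 of 57662 regions. Positions were given on the mouse build mm9 with the GENCODE vM1 annotation. Both genotypes came from a CTCF-EGFP-AID (mAID) line, in which the endogenous CTCF carries a degron and was removed with auxin. WT_CTCF cells carried an introduced wild-type CTCF, and MUT_CTCF cells carried an introduced CTCF with a threonine changed to alanine, which cannot be O-GlcNAcylated at that residue. O-GlcNAc is a single sugar added to serine or threonine. Each genotype was represented by 2 CTCF ChIP-seq libraries described as biological replicates. The study worked with picked clones, so genotype and clone cannot be told apart here. Input libraries were not analysed here. The files hold no expression values, so neither the cell identity nor the introduced CTCF was checked.

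Cohesin is a ring of SMC and kleisin proteins that extrudes loops of chromatin and holds sister chromatids together. CTCF bound to its motif is known to halt extruding cohesin, so that both proteins meet at loop anchors. Nipbl loads cohesin, Wapl releases it, the Pds5 proteins bind the ring and take part in release and in its acetylation, the Esco enzymes acetylate Smc3, and sororin, encoded by Cdca5, protects acetylated rings from release.

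A region is a stretch joined from the overlapping peaks of the libraries. For each library, the lists give whether a peak was called in a region, the peak score and the peak width. The score is the value given by the peak caller on tracks scaled to a Drosophila spike-in. Its definition was not stated and the read depth is unknown, so a lower score or a missing peak was not read as a smaller amount of bound CTCF. The paper reports the other direction for binding. It found more chromatin binding of the mutant CTCF, by spike-in normalized read counts and by blots of chromatin-bound protein. Those are other measures than the peak scores and calls given here. The lists held 32712 to 54001 peaks per library, the lowest score in each was 13, and the median score lay between 226 and 281. A mean signal over all 4 libraries, in spike-in scaled read counts per region, was taken from the authors' table. Distances were measured from the gene start along transcription, with negative values upstream.

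A match to the 13-letter CTCF core motif with at most 1 mismatch on either strand was found in 28 of 42 regions (66.7%), against 60.6% of all regions and 4.44% of windows of equal width 5000 bp to either side. An exact match was present in 4 of 42 (9.52%), against 12.7% of all regions. The motif pointed along the gene in 13 regions and against it in 15. Sites of some regions with high WT_CTCF scores are shown first. Other such regions are not printed, among them Pds5b at -7.7 kb (952 and 789 in WT_CTCF) and Stag1 at 312.7 kb (723 and 637). Both of these were called in all 4 libraries. Each is written 5′ to 3′ on the strand of its match, with the 13 matched letters in capitals.

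Stag1, promoter of an internal transcript, chr9:100543992-100544004, + strand: cagcgcggCCAGCAGAGGGCGgtcgggac
Pds5b, promoter, chr5:151476268-151476280, + strand: ccgtgcggCCGGTAGGGGGCGctgagaac
Smc3, promoter, chr19:53674399-53674411, + strand: gctcggaaCCAGCAGGAGGCGctctgagc
Smc3, downstream, chr19:53723399-53723411, + strand: ccccgtagCCACTAGAGGGAGcccttgat
Nipbl, upstream, chr15:8401219-8401231, + strand: actactaaCCAGCAGGGGGAGtgagtcgc
Cdca5, upstream, chr19:6067147-6067159, - strand: tggctcggCCTGCAGGTGGCGctctattt

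The Stag1 site was an exact match, and each of the other 5 had 1 mismatch. A second group of sites shared the same 12 letters, CCAGAAGAGGGC, within the 13. They are shown because this core was the most frequent among these genes and lay mostly in regions of low signal.

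Rad21, upstream, chr15:51829806-51829818, - strand: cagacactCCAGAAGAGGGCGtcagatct
Smc3, intron, chr19:53706700-53706712, + strand: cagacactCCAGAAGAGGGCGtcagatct
Smc3, intron, chr19:53711241-53711253, - strand: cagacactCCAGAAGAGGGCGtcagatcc
Wapal, intron, chr14:35493582-35493594, + strand: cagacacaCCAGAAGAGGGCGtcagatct
Nipbl, downstream, chr15:8223190-8223202, - strand: aagacacaCCAGAAGAGGGCGccagatcc
Pds5a, intron, chr5:66059117-66059129, - strand: cagacatgCCAGAAGAGGGCAtcagatct
Stag1, intron, chr9:100798651-100798663, - strand: cagtcacaCCAGAAGAGGGCGttattgat

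The similarity reached beyond the core. Of the 11 regions with this core, 9 were compared at their best motif match. Left out were a Wapal region, whose core lay in no such match, and the Esco1 region. The 36 pairs were identical at 16 to 29 of 29 bases (median 22), and the Rad21 and first Smc3 sites were identical throughout. Outside the core, pairs shared 4 to 17 of 17 bases (median 10). The compared sites not printed, in Smc3 at 37.9 kb and Pds5a at -8.6 kb, were among the least alike, with 4 to 10 of 17 such bases shared with any other site. No repeat annotation was used, so whether these sites lie in copies of a mobile element was not tested.

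Fewer of the cohesin gene regions had a peak in MUT_CTCF. The WT_CTCF libraries called 36 and 39 of the 42 regions, and both MUT_CTCF libraries called 20. The mean was 37.5 ± 2.12 in WT_CTCF and 20 ± 0 in MUT_CTCF (SD, n = 2), a ratio of 0.533. With 2 libraries against 2, the exact two-sided permutation test gave p = 0.333, which is the smallest value it can give. Over all regions, the libraries called 49775 and 53876 in WT_CTCF and 33600 and 32382 in MUT_CTCF, a ratio of 0.637, so fewer calls in MUT_CTCF were seen over the genome as well.

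Of the 42 regions, 16 (38.1%) were called in all 4 libraries, against 52.6% of all regions. Another 9 (21.4%) were called in both WT_CTCF and no MUT_CTCF library, close to the 19.5% of all regions. A further 8 (19.0%) were called in both WT_CTCF and 1 MUT_CTCF library, against 7.96% of all regions. The last 9 (21.4%) were called in only 1 WT_CTCF library, against 18.8%. No region was called in MUT_CTCF alone. The regions also had less signal than average, with a median of 68.1 scaled reads against 95.25 over all regions and of 177 against 222 per kb, and regions of low score are called less often in MUT_CTCF throughout the genome.

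**Figure D1:**
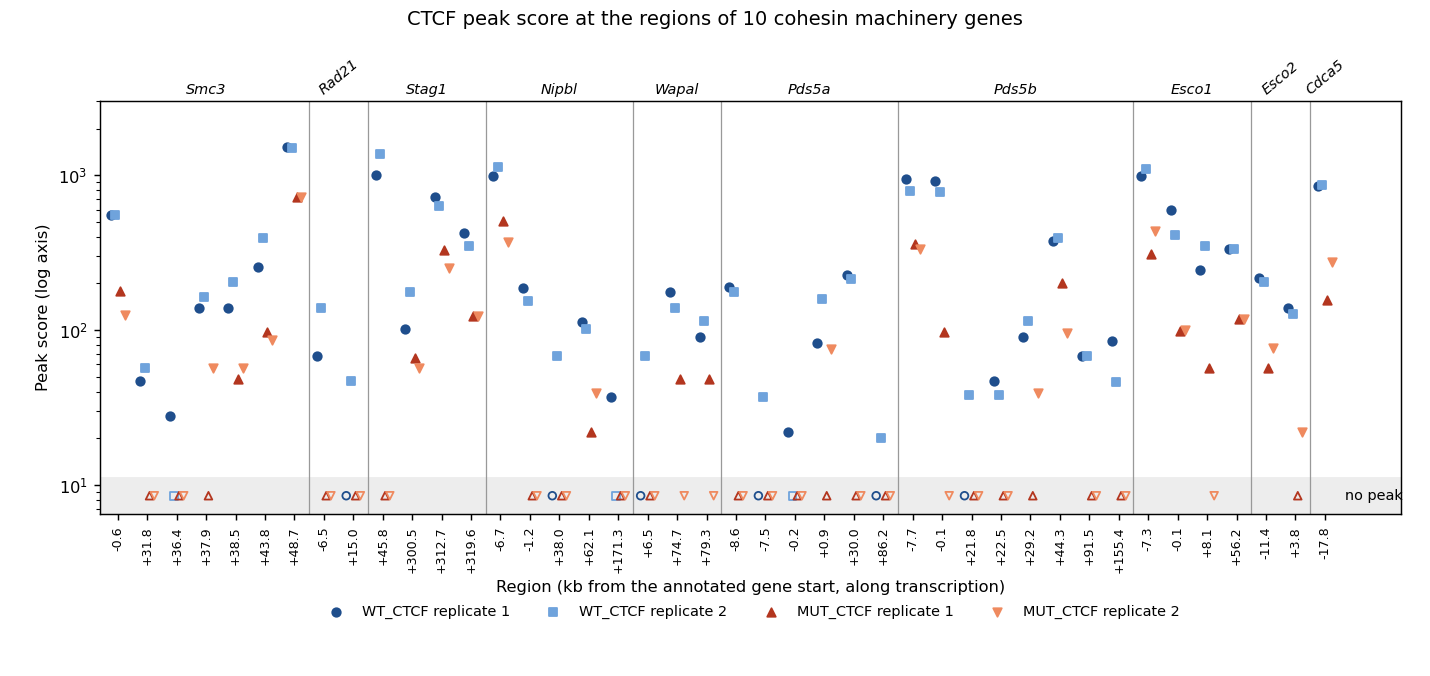
Peak score (log axis) in each of the 4 libraries for the 42 regions, grouped by gene and ordered by distance from the gene start in kb. Filled points are called peaks, and open points in the grey band mark libraries without a peak. Where a region has peaks in both genotypes, the MUT_CTCF points lie below the WT_CTCF points.

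The ring subunits differed in how their sites were called. Smc3, which forms the ring together with Smc1a and Rad21, had 7 regions, 8.19 per 100 kb of gene and window. Of these, 4 were called in all libraries. The region with the highest signal lay downstream of the gene at 48.7 kb (chr19:53723035-53724177), with a mean of 476.75 scaled reads, or 417 per kb. Its scores were 1529 and 1490 in WT_CTCF and 723 and 723 in MUT_CTCF. The MUT_CTCF scores were lower, without overlap, at a log2 difference of -1.06 ± 0.18 (SE, limma, adjusted p = 0.0029). Such a fall was common: 96.2% of all regions called in all 4 libraries were lower without overlap. At an adjusted p below 0.05 (limma), 90.4% of them were called lower.

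The Smc3 promoter region at -0.6 kb (chr19:53674094-53674541) had a mean of 232.25 scaled reads, or 518 per kb. Its scores were 555 and 556 in WT_CTCF and 179 and 125 in MUT_CTCF, a log2 difference of -1.89 ± 0.23 (SE, limma, adjusted p = 0.00168). Both Smc3 promoter and downstream motifs pointed along the gene. Between them, 2 exonic regions were called in all libraries. The exonic region at 38.5 kb scored 138 and 203 in WT_CTCF and 48 and 57 in MUT_CTCF. At 43.8 kb the scores were 254 and 395 against 97 and 86. Both MUT_CTCF scores lay below both WT_CTCF scores in these 2 regions, as in 96.2% of all regions called in all libraries. Neither held a motif match. The intronic region at 31.8 kb, with the site identical to that of Rad21, was called at 47 and 57 in WT_CTCF and in no MUT_CTCF library. The other intronic regions, at 36.4 and 37.9 kb, had means of 19.75 and 68.0.

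Rad21, the kleisin that closes the ring and is cut by separase at anaphase, had 2 regions and no peak in either MUT_CTCF library. Its upstream region at -6.5 kb (chr15:51829649-51830015) scored 68 and 138 in WT_CTCF, with a mean of 51.75. The intronic region at 15.0 kb was called at 47 in WT_CTCF replicate 2 only. For the upstream region, the lower WT_CTCF score fell between 50 and 100, a range in which 74.6% of all regions were called in no MUT_CTCF library.

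Stag1, a subunit that binds Rad21, held the site that stood farthest from this pattern. The region (chr9:100543741-100544311) lay 45.8 kb inside the gene, and its centre was -6 bp from the start of another Stag1 transcript, so it touched a promoter, an exon and a UTR. It scored 1005 and 1380 in WT_CTCF and was called in neither MUT_CTCF library. Its mean was 473.25 scaled reads, or 829 per kb, and only 8 of the 11266 regions called in both WT_CTCF and no MUT_CTCF library had a higher mean. The median mean of those regions was 47.25. Among 6569 regions with a lower WT_CTCF score at least as high, 7 (0.107%) were called in no MUT_CTCF library. The neighbouring sites were called in MUT_CTCF: of the 11 other regions within 300 kb, 10 had a peak in all 4 libraries, and the nearest region was 94.5 kb away.

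The other 3 Stag1 regions lay in introns toward the end of the gene and were called in all libraries. At 300.5 kb the scores were 101 and 177 in WT_CTCF and 66 and 57 in MUT_CTCF. At 312.7 kb they were 723 and 637 against 331 and 250. At 319.6 kb they were 424 and 347 against 124 and 124. In each of these the MUT_CTCF scores lay below both WT_CTCF scores, and the adjusted p (limma) was 0.0134, 0.00339 and 0.00164. Among all regions called in all 4 libraries, 96.2% had scores in this order and 90.4% were called lower, so this is the usual outcome.

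**Figure D2:**
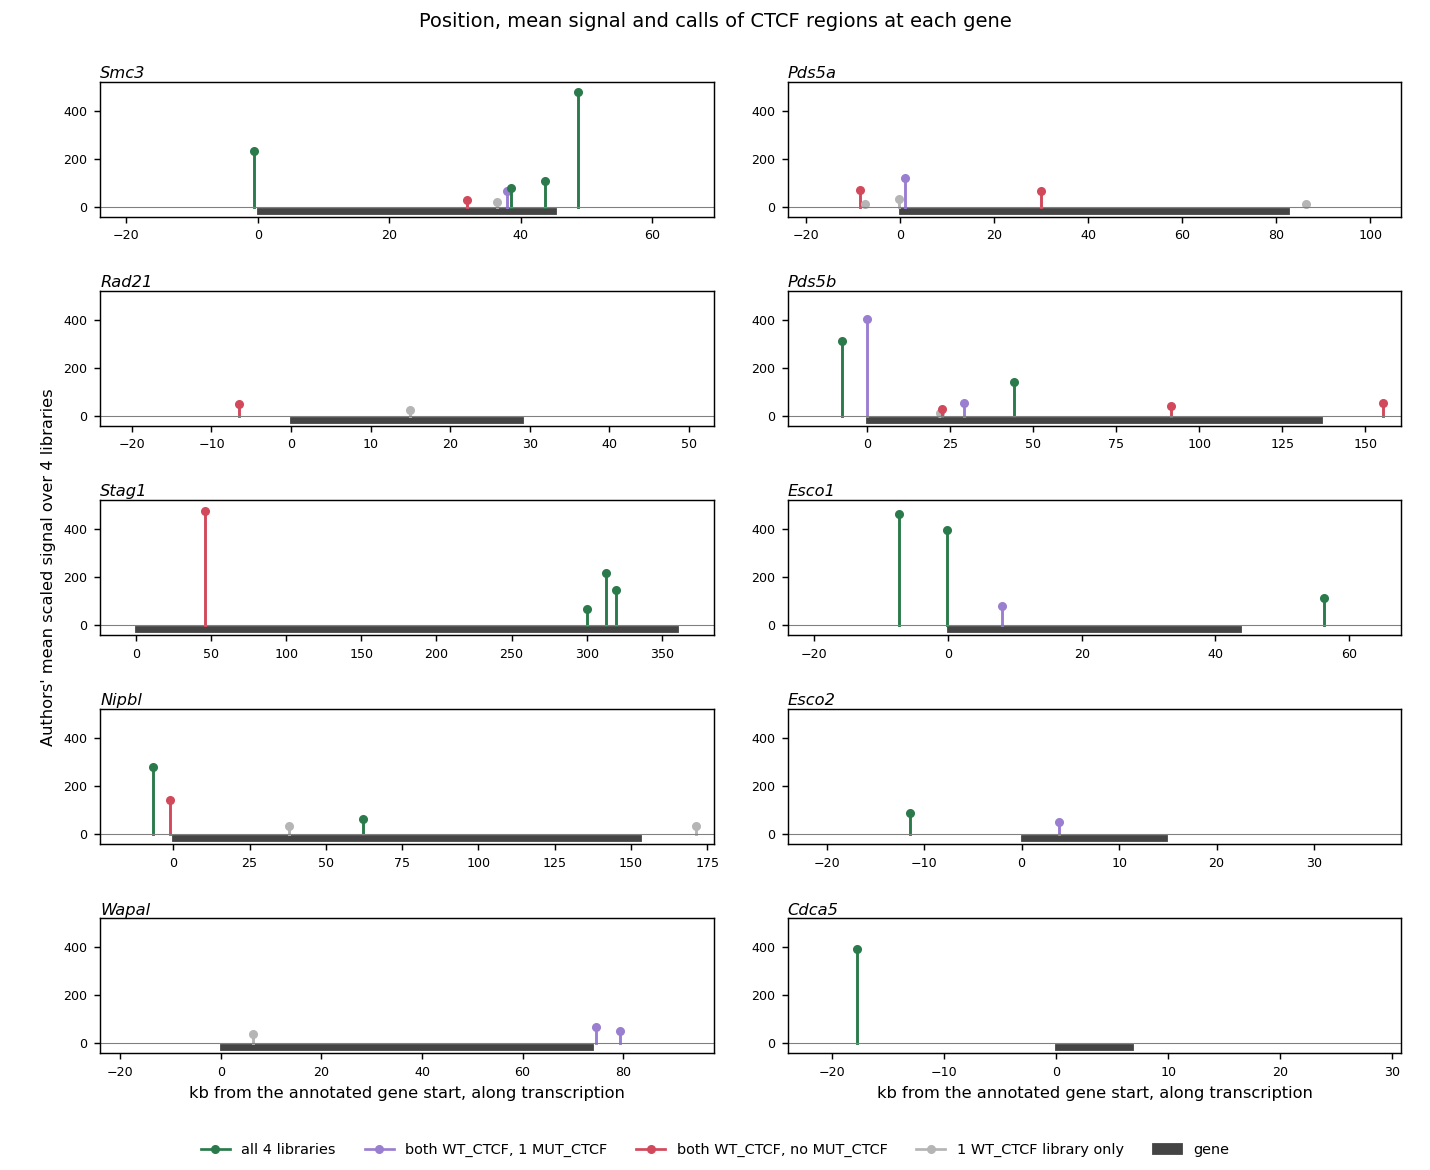
Position of the 42 regions in kb from the gene start (horizontal) and the authors' mean scaled signal over the 4 libraries (vertical) for each gene, with the gene as a dark bar. Colours show which libraries called the region. The Stag1 region at 45.8 kb, without a MUT_CTCF peak, is nearly as high as the highest region, downstream of Smc3.

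The loader gene Nipbl had 5 regions. The highest was upstream at -6.7 kb (chr15:8400846-8401558), with a mean of 277.75. It scored 992 and 1123 in WT_CTCF and 503 and 372 in MUT_CTCF, a log2 difference of -1.29 ± 0.22 (SE, limma, adjusted p = 0.00324). The promoter region at -1.2 kb (chr15:8395341-8395991) had a mean of 142.75, scored 187 and 155 in WT_CTCF and had no MUT_CTCF peak. Its lower WT_CTCF score fell between 100 and 200, a range in which 36.4% of all regions were called in no MUT_CTCF library. The intronic region at 62.1 kb was called in all libraries, at 113 and 102 against 22 and 39. The remaining Nipbl regions, at 38.0 and 171.3 kb, were called in 1 WT_CTCF library each.

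Wapal, which encodes the release factor Wapl, had 3 regions and none that was called in all libraries. The highest, downstream at 74.7 kb (chr14:35561616-35562044), had a mean of 67.75 and scored 176 and 138 in WT_CTCF and 48 in MUT_CTCF replicate 1. The region at 79.3 kb held an exact motif match and scored 90 and 114 in WT_CTCF and 48 in MUT_CTCF replicate 1. MUT_CTCF replicate 2 called no region at Wapal. The intronic region at 6.5 kb was called in WT_CTCF replicate 2 only, at 68.

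The 2 Pds5 genes, paralogs whose products bind the ring at Rad21, had 14 regions between them, 6 at Pds5a and 8 at Pds5b. No Pds5a region was called in all libraries, and MUT_CTCF replicate 1 called none there. The highest Pds5a region lay in the first part of the gene at 0.9 kb (chr5:66087995-66088341), touching an exon and a UTR, with a mean of 120.75. It scored 82 and 158 in WT_CTCF and 75 in MUT_CTCF replicate 2. The promoter region at -0.2 kb (chr5:66089219-66089401), with 84.7% G+C, was called in WT_CTCF replicate 1 only, at 22. Regions at -8.6 kb and at 30.0 kb, each with the shared core, scored 189 and 177 and 228 and 215 in WT_CTCF and were not called in MUT_CTCF. The regions at -7.5 and 86.2 kb were called in WT_CTCF replicate 2 only, at 37 and 20.

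Pds5b had sites of higher signal. Its promoter region at -0.1 kb (chr5:151475948-151476418) had a mean of 403.5 scaled reads, or 857 per kb, the highest density among the 42 regions. It scored 919 and 781 in WT_CTCF, 97 in MUT_CTCF replicate 1, and had no peak in MUT_CTCF replicate 2. The region upstream at -7.7 kb, in the promoter of N4bp2l2, scored nearly the same in WT_CTCF, at 952 and 789, and was called in MUT_CTCF at 360 and 334. Within the gene, the intronic region at 44.3 kb was called in all libraries, at 377 and 393 against 200 and 96. The regions at 91.5 and 155.4 kb scored 68 and 68 and 85 and 46 in WT_CTCF and had no MUT_CTCF peak. The regions at 21.8, 22.5 and 29.2 kb had means of 11.75, 28.25 and 53.5.

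The 2 acetyltransferases of Smc3 differed in signal. Esco1, active through the cell cycle, had 4 regions, and 3 of them were called in all libraries. Its promoter region at -0.1 kb had a mean of 397.25 scaled reads, or 635 per kb. The scores were 598 and 409 in WT_CTCF and 99 and 100 in MUT_CTCF, a log2 difference of -2.31 ± 0.24 (SE, limma, adjusted p = 0.00152), the largest fall among the 16 regions called in all 4 libraries. The region at -7.3 kb, in the promoter of the neighbouring Snrpd1, had a mean of 461.5 and scored 993 and 1093 against 309 and 439. The region at 56.2 kb, downstream of Esco1 and overlapping Greb1l and the promoter of SNORA33, scored 332 and 332 against 118 and 118. The region at 8.1 kb scored 244 and 347 in WT_CTCF and 57 in MUT_CTCF replicate 1 only.

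Esco2, the acetyltransferase of S phase, had 2 regions of low signal. The region at -11.4 kb, within Ccdc25 (chr14:66464002-66464536), had a mean of 87.5 and scored 216 and 203 in WT_CTCF and 57 and 76 in MUT_CTCF. The region at 3.8 kb, in the promoter of another Esco2 transcript, had a mean of 50.25 and scored 138 and 126 in WT_CTCF and 22 in MUT_CTCF replicate 2.

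Cdca5 had no region in the gene itself and 1 in its window, at -17.8 kb (chr19:6066857-6067516), in the promoter of Tm7sf2. The mean was 393.0 scaled reads, or 595 per kb, and the scores were 853 and 865 in WT_CTCF and 156 and 277 in MUT_CTCF, a log2 difference of -2.05 ± 0.30 (SE, limma, adjusted p = 0.00217). This region entered by the 20 kb limit, lying 17.5 kb from the gene. The member farthest from its gene, 18.4 kb from Pds5b, scored 85 and 46 in WT_CTCF. Just outside, 20.5 kb from Pds5b, a region scored 125 and 203 in WT_CTCF with no MUT_CTCF peak, and 20.7 kb from Wapal a region scored 1055 and 1272 against 559 and 383.

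The MUT_CTCF scores were lower at every cohesin gene region that could be tested. A log2 difference was fitted with limma over the 30317 regions called in all 4 libraries, with adjustment over all of them. All 16 tested cohesin gene regions were called lower in MUT_CTCF at an adjusted p below 0.05, against 90.4% of all tested regions. By direction alone, the log2 difference was below 0 at all 16, against 99.3% of all tested regions. In all 16, both MUT_CTCF scores lay below both WT_CTCF scores, against 96.2%. The median log2 difference was -1.56 at these genes and -1.18 over all regions. The regions tested had to be called in MUT_CTCF, so the other 26 are not covered by these counts. Leaving out WT_CTCF replicate 1 left 8 of 16 calls, against 38.9% of all regions. Leaving out WT_CTCF replicate 2 left none here or in the genome, with adjusted p from 0.0569 to 0.191 at these genes and an unadjusted p below 0.05 at 10 of 16, against 60.3% of all regions.

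To ask whether these regions differed from the rest, the log2 scores were centred on the median of their library. On this relative scale no cohesin gene region passed in either direction (limma, adjusted p below 0.05), against 3.22% of all regions lower and 1.95% higher. At an unadjusted p below 0.05, 4 of 16 were lower and 0 higher, against 13.4% and 13.6% of all regions. The relative difference was below 0 at 14 of 16 regions, against 47.2% of all regions, and its median was -0.35 against 0.03. This gap depended on the window: over the 34 tested regions within 50 kb of the genes, the median was -0.076. The middle 50% of all regions lay between -0.31 and 0.33, as the 25th and 75th percentiles.

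The lowest relative values were -1.10 ± 0.26 at the Esco1 promoter (SE, limma, adjusted p = 0.0586) and -0.83 ± 0.31 at the Cdca5 upstream region (adjusted p = 0.145). The Smc3 promoter followed at -0.68 ± 0.22 (adjusted p = 0.113) and the Nipbl intronic region at 62.1 kb at -0.66 ± 0.31 (adjusted p = 0.229). The highest were 0.15 ± 0.19 downstream of Smc3 (adjusted p = 0.644) and 0.09 ± 0.26 at 300.5 kb in Stag1 (adjusted p = 0.858). Leaving out MUT_CTCF replicate 2 brought 2 of 20 regions past the threshold (limma), against 3.63% of all regions lower and 1.12% higher, the Cdca5 region at -1.29 (adjusted p = 0.0394) and the Pds5b promoter, which only then could be tested, at -1.95 (adjusted p = 0.0265). With a variance that follows the mean score, the Esco1 promoter and the Cdca5 region passed (limma, adjusted p = 0.0074 and 0.00857), 2 of 16, but 8.49% of all regions were then lower and 10.9% higher.

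**Figure D3:**
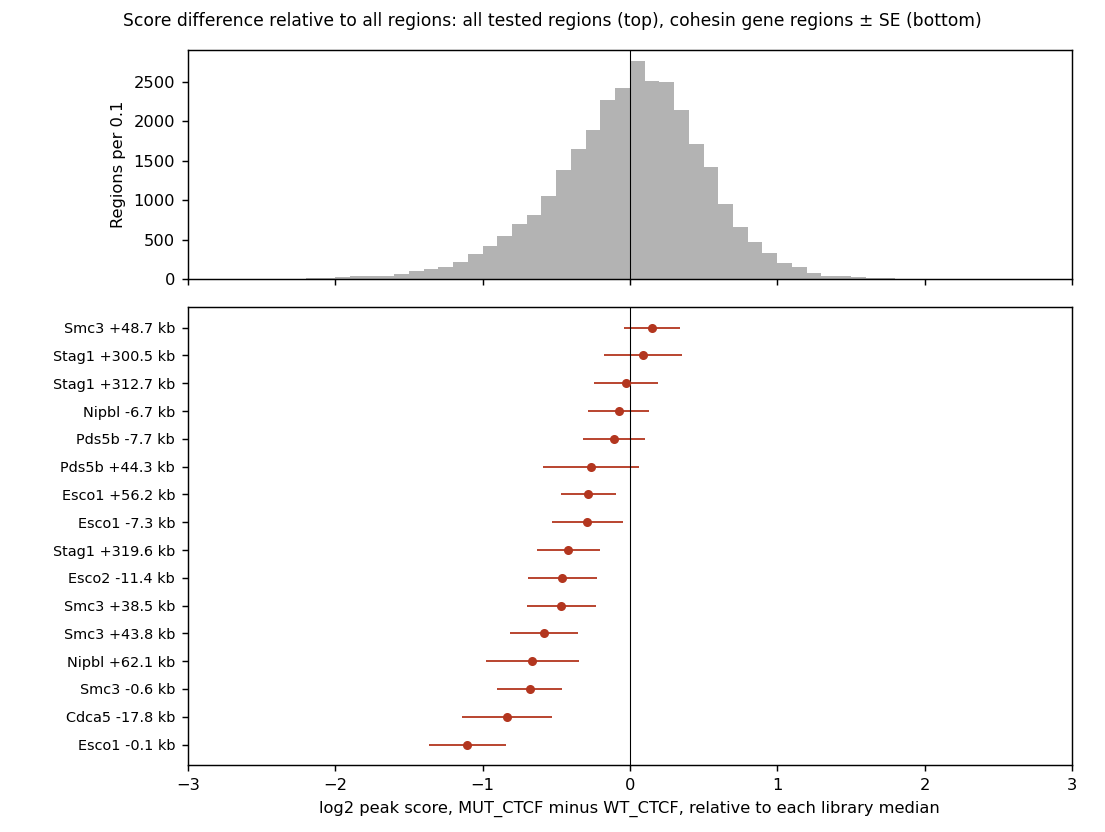
Difference in log2 peak score, MUT_CTCF minus WT_CTCF, after centring each library on its median (horizontal, same axis in both panels). The upper panel counts all 30317 tested regions in steps of 0.1, and the lower panel gives the 16 cohesin gene regions with their standard errors, of which 14 lie below 0.

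Peaks were also narrower in MUT_CTCF. Width was lower at 12 of 16 cohesin gene regions (limma, adjusted p below 0.05), against 42.0% of all tested regions, and the median log2 difference was -0.86 against -0.46. At an unadjusted p below 0.05 the count was 16 of 16, against 58.2% of all regions. Width and score come from the same peak calls, so they are not separate evidence. Without WT_CTCF replicate 1 or replicate 2, no region of the genome passed, and 15 and 9 of 16 cohesin gene regions had an unadjusted p below 0.05, against 44.1% and 34.7% of all regions. The summits stayed close to the motif. Among 13 regions with a match, the median distance from summit to motif was 8 and 10 bp in WT_CTCF and 10 and 15 bp in MUT_CTCF. Over all regions it was 10 and 10 bp in WT_CTCF and 11 and 11 bp in MUT_CTCF. The median shift of the summit between genotypes was 13.5 bp, against 8.5 bp over all regions. Between the WT_CTCF replicates alone, the median gap was already 10.5 bp, against 7.0 bp over all regions. Only the region at -7.3 kb from Esco1 moved by more than 50 bp, by 75 bp, as did 2.34% of all regions.

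Whether a region kept its peak in MUT_CTCF went with its WT_CTCF score. Over the genome, no MUT_CTCF library called 91.3% of the regions whose lower WT_CTCF score was below 50, 74.6% of those from 50 to below 100, 36.4% of those from 100 to below 200, 6.0% of those from 200 to below 400 and 0.927% of those from 400 to below 800. At the cohesin genes the corresponding counts were 3 of 3, 2 of 5, 2 of 8, 1 of 7 and 0 of 5. From 800 to below 1600 the Stag1 promoter was 1 of 5, against 0.169% of all regions.

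**Figure D4:**
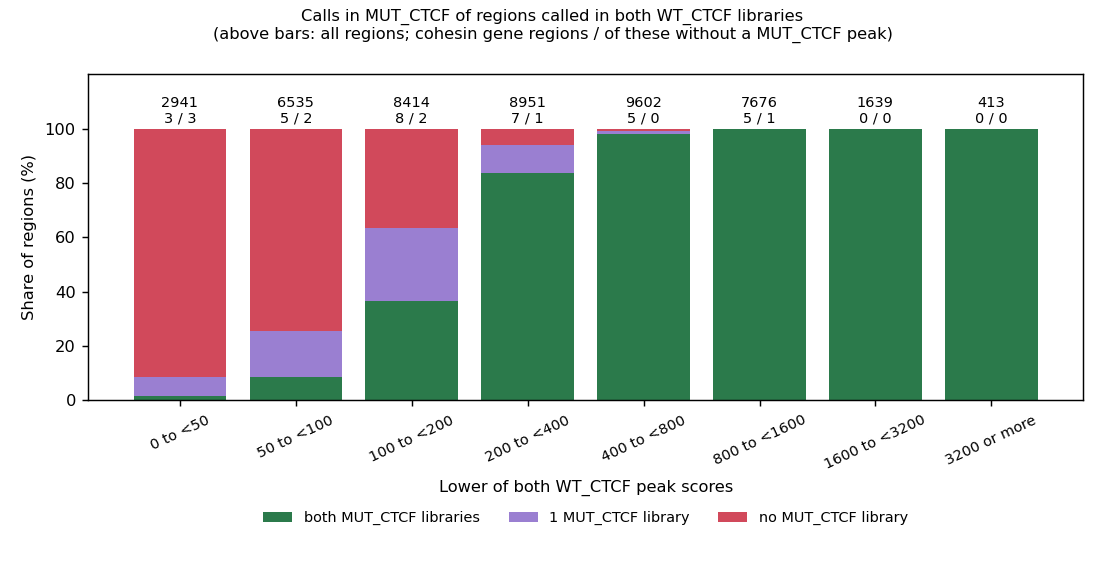
Share of regions (%) called in both, 1 or no MUT_CTCF library, for regions called in both WT_CTCF libraries, by the lower of the 2 WT_CTCF scores. Above each bar stand the number of all regions and then the number of cohesin gene regions with, after the slash, those without a MUT_CTCF peak. In the bar from 800 to below 1600, the 1 cohesin gene region without a peak is the Stag1 promoter.

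The 3 regions at the promoters of Stag1, Pds5b and Esco1 shared a high G+C content, at 73.6%, 63.7% and 60.2%, against a median of 42.0% over the 42 regions. They were the only cohesin gene regions called in both WT_CTCF libraries with at least 60% G+C, and all 3 had lower WT_CTCF scores of at least 400. The Stag1 region had no MUT_CTCF peak, the Pds5b region had 1, and the Esco1 region had both, with the lowest relative score. All 7 cohesin gene regions with less G+C and a WT_CTCF score at least as high were called in both MUT_CTCF libraries. The same split was seen over the genome: of 370 regions with at least 60% G+C and scores of at least 400, 28.4% were missed by at least 1 MUT_CTCF library, against 0.512% of 18960 regions with less G+C. The median relative log2 difference of these G+C-rich regions was -0.77, against 0.05. Low relative scores and missing peaks also occurred below this G+C limit at the cohesin genes. The Cdca5 region, with 58.5% G+C, had a relative score difference of -0.83, and the Smc3 promoter, with 48.0%, of -0.68. The Nipbl promoter, with 44.5% G+C and WT_CTCF scores below 400, had no MUT_CTCF peak. Both limits, of 60% G+C and of a score of 400, were set after the values were seen. The part of G+C content in this result was not tested.

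The regions with the shared core were a different set, with low signal and none with at least 60% G+C. The core was present in 11 of 42 regions (26.2%), close to the 23.3% of all regions, and in 2.18% of the flanking windows. These regions lay at Smc3 (3), Wapal (2), Pds5a (2), Rad21, Nipbl, Stag1 and Esco1. Their means lay between 19.75 and 78.25 scaled reads, with a median of 67. Only the Stag1 region at 300.5 kb was called in all libraries, 4 were called in both WT_CTCF and no MUT_CTCF library, 3 in both WT_CTCF and 1 MUT_CTCF library, and 3 in 1 WT_CTCF library. Of the 18 regions with another motif match, 12 (66.7%) were called in all libraries, and their median was 180.25. Over the genome, 41.7% of regions with the core and 72.9% of those with another match were called in all libraries, at medians of 67.5 and 176.25. Since score and core go together, their parts were not separated.

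**Figure D5:**
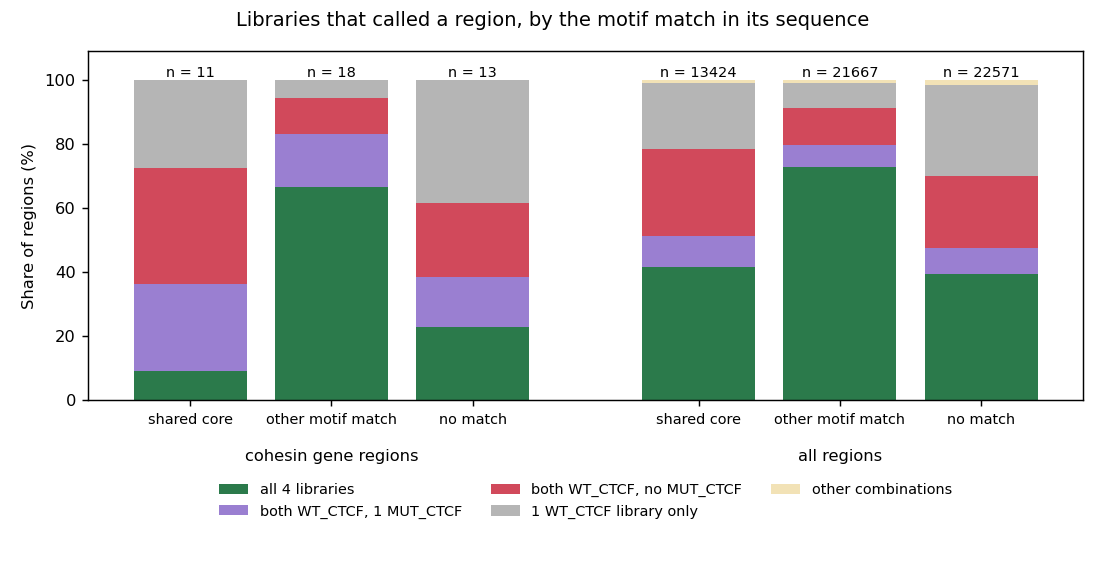
Share of regions (%) by the libraries that called them, for regions with the shared 12-letter core, with another motif match, and with no match, at the cohesin genes (left) and over all regions (right), with the number of regions above each bar. In both sets, fewer regions with the core than with another match were called in all 4 libraries.

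Other genes of the pathway gave a comparison. At 11 further cohesin genes, among them Stag2, Mau2, Hdac8 and the meiotic Rec8 and Stag3, 38 regions were found. Of these, 18 (47.4%) had a peak in all libraries, against 52.6% of all regions. Another 6 (15.8%) were called in both WT_CTCF and no MUT_CTCF library, against 19.5%. Smc1a and Rad21l had 0 regions. At an adjusted p below 0.05 (limma), the score was lower at 16 of 18 tested, against 90.4% of all tested regions. The log2 difference was below 0 at all 18, against 99.3% of all tested regions. At the same threshold, the relative score was lower at 1 and higher at 1, against 3.22% and 1.95% of all tested regions. Its median was 0.12, with 7 regions below 0 and 11 above. At 14 genes of condensin and the Smc5/6 complex, related SMC rings, 44 regions were found. Among them, 20 (45.5%) had a peak in all libraries, against 52.6% of all regions. In both WT_CTCF and no MUT_CTCF library, 13 (29.5%) were called, against 19.5%. At an adjusted p below 0.05 (limma), the score was lower at 18 of 20 tested, again against 90.4%. The log2 difference was below 0 at all 20. At the same threshold, the relative score was lower at 1 and higher at 0, against 3.22% and 1.95%. Its median was -0.06, with 12 regions below 0 and 8 above. The number called in MUT_CTCF relative to WT_CTCF was 0.627 and 0.537 in these lists, against 0.637 over all regions and 0.533 at the cohesin machinery genes.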

How the data were processed

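Per the labels, samples were 2 WT_CTCF and 2 MUT_CTCF ChIP-seq libraries and 1 input per genotype. The authors trimmed reads with Trim Galore 0.4.4, aligned them with Bowtie2 2.3.4.1 to mm9, removed multiply aligned reads and duplicates, and called peaks per library with MACS2 2.1.1.20160309 on spike-in scaled coverage. The deposited lists give a peak score, start, end and summit offset. The cutoff, the definition of the score and the use of the input are not given in the sources used here. The authors' table gives a mean signal per region, the mean over the 4 libraries of spike-in scaled counts. Every mean was a multiple of 0.25. Its 5 other columns hold the authors' own comparison of genotypes (fold change, error, statistic and p-values) and were not used.

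All 57662 regions equalled the merged lists. The highest peak of a library in a region gave its score, width and summit. Promoters were 3000 bp upstream of a transcript start. limma 3.58.1 (R 4.3.3) was fitted to log2 scores, median-centred log2 scores and log2 widths, with the Benjamini-Hochberg adjustment over 30317 regions. The fit was also run on simulated data with known changes, and its outcome is not given here. Counts per library were compared by an exact permutation test. Scripts ran under Python 3.11.15 with scipy 1.17.1, pandas 2.3.3, numpy 2.4.6 and, for plots, matplotlib 3.10.9. Regions named were the highest of each gene, those at promoters, those called in both WT_CTCF and no MUT_CTCF library (the 8 with the highest scores), and the 2 lowest and 2 highest log2 score differences; others are given more briefly. The members and gene lists were chosen with earlier results of these data known. The shared core, the limits of 60% G+C, of a score of 400 and of 50 bp were set after the values were seen. The alternatives were other windows, thresholds, scalings and motif rules, and each library left out.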

Additional observations from a re-analysis of the deposited data

How the results depend on the processing

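Of 433 alternative values for 46 results, 369 kept their direction and their side of the threshold. The 16 lower scores became 5 of 5 tested with only scores at or above the median of all peaks (95.3% of all regions). With missing peaks set to the list minimum they became 25 of 42 (58.4% of all regions). In gene bodies they became 8 of 8 and with 50 kb windows 33 of 34, against 90.4% of all tested regions. When a library was left out they became 0 to 19, of 16 or 20 tested. Each such fit holds 1 library of a genotype, so these counts rest on that library. The median log2 difference at these genes then lay between -1.67 and -1.47. The 12 narrower regions became 5 of 5 with the stricter scores (48.6% of all regions). In gene bodies they became 6 of 8 and with 50 kb windows 20 of 34, against 42.0% of all tested regions. Without a library they became 0 to 11, of 16 or 20 tested, again with 1 library of a genotype in each fit. The median log2 width difference then lay between -0.93 and -0.59. The 0 regions with a lower relative score became 2 with a trended variance (8.49% of all regions). They became 1 after centring on the regions with the highest means (5.83% of all regions). When a library was left out, the median relative difference at these genes lay between -0.49 and -0.24. Without a library, relative values ranged across 0 at Pds5b -7.7 kb (-0.307 to 0.088), Pds5b 44.3 kb (-0.762 to 0.23), Stag1 300.5 kb (-0.255 to 0.43), Stag1 312.7 kb (-0.199 to 0.139) and Nipbl -6.7 kb (-0.263 to 0.105), and Stag1 300.5 kb was at -0.043 after centring on the highest means. The 16 regions called in all libraries became 5 with stricter scores, against 14344 of all 57662 regions. Without a library they became 16 to 20, against 30338 to 33131 of all regions. The 9 without a MUT_CTCF peak became 8 with stricter scores and 12 to 15 without a library, for which no share over all regions was computed. They became 18 when 1 replicate sufficed. The other 24 (57.1%) then had a MUT_CTCF peak, against 61.7% of all regions. The motif share was 9.52% with no mismatch and 52.4% with only the 8 most fixed letters. Replicate numbers did not pair the samples: the replicate differences of the genotypes correlated at -0.0033 over 30317 regions. With the replicate block, the number called differed by -17.5, with an exact sign-flip p of 0.5, and the block changed no call. The cause of these changes was not tested, beyond the fewer regions or libraries that some alternatives hold. With 2 libraries per genotype, the calls rest on few samples, and leaving out a WT_CTCF library removed every width call in the genome.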
